A study of Mus musculus with 214 samples.

Results

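Mgmt, the direct-reversal gene of methylation repair, and 9 genes around base excision repair were followed in mouse liver after N-nitrosodimethylamine (NDMA). The members were taken by symbol from the deposited expression tables: Mgmt and Alkbh3 (direct reversal), Mpg, Ogg1 and Neil1 (DNA glycosylases), Apex1 (abasic-site endonuclease), Polb (gap-filling polymerase), Xrcc1 and Lig3 (scaffold and ligase) and Parp1 (strand-break sensor). All 10 of 10 were measured among the 18647 genes of the WT table and the 19540 genes of the Mgmt-/- table.

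Every mouse was on a C57BL/6 background and carried the RaDR and GPT reporter transgenes, so that the control genotype was RaDR+/+;GPT+/+ (WT) and the repair-deficient genotype was RaDR+/+;GPT+/+;Mgmt-/- (Mgmt-/-). NDMA was injected intraperitoneally into pups, first 3.5 mg/kg on postnatal day 8 and then 7 mg/kg on postnatal day 15, which adds up to 10.5 mg/kg, and control pups were injected with saline. Livers were collected on day 1, day 2 and day 5, at week 10 and at month 10 after the second dose. Litters, not single pups, were assigned to NDMA or saline, so litter and treatment cannot be told apart. In time order, 26, 8, 8, 8 and 13 NDMA mice and 21, 8, 7, 8 and 10 saline mice were WT, and 12, 8, 8, 8 and 13 NDMA mice and 12, 7, 6, 8 and 12 saline mice were Mgmt-/-. Both sexes were sampled at every time. The germline deletion of Mgmt was present in every cell of the Mgmt-/- mice, and the reporter transgenes were present in the controls as well as in the Mgmt-/- mice.

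NDMA is converted by liver cytochromes into a methylating agent. The Mgmt protein takes the methyl group from the oxygen of guanine onto itself in a single reaction and is then degraded, so each molecule acts once and capacity depends on how much protein is made. Methyl groups on ring nitrogens are instead handled by the glycosylase Mpg, which removes the whole base. Apex1 then cuts the strand at the empty site, Polb fills the gap, and Xrcc1 with Lig3 seals it, while Parp1 binds the open break. Alkbh3 reverses methylation on nitrogens of the base-pairing face by oxidation, and Ogg1 and Neil1 remove oxidised bases.

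By the GENCODE annotation of GRCm38, Mgmt spans 136894614 to 137130266 on the plus strand of chromosome 7. RefSeq promoter windows of 250 bases before to 50 after the start (GRCm38.p6) were available for 9 of the 10 members and are shown for the 3 genes on which the results below turn most. Mgmt rose after NDMA in WT liver, Parp1 fell after NDMA in both genotypes and was higher at month 10 than at week 10, and Apex1 was lower at month 10. Capitals mark the GC box, GGGCGG on either strand (CCGCCC), and the palindromic E box CACGTG. The motifs share no letters in these windows.
Mgmt, chr7:136894336-136894635, plus strand: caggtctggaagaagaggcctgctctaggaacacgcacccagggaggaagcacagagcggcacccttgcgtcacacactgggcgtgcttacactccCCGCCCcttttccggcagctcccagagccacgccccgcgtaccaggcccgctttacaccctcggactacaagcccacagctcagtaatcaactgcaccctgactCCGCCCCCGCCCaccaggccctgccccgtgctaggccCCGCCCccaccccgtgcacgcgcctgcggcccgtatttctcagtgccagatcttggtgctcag
Parp1, chr1:180568641-180568940, plus strand: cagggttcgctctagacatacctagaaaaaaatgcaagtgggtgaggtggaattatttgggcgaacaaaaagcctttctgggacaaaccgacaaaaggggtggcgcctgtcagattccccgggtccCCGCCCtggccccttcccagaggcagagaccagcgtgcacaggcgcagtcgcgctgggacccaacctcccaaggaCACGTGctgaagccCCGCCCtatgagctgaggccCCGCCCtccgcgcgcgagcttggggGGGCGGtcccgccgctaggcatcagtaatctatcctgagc
Apex1, chr14:50924699-50924998, plus strand: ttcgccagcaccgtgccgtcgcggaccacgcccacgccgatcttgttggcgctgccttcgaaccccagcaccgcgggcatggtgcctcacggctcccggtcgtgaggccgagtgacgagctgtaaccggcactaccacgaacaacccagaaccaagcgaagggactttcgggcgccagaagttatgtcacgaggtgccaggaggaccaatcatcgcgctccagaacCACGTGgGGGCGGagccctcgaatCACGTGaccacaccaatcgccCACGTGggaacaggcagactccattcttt

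The Mgmt window held 4 GC boxes, the Parp1 window 4 GC boxes and 1 E box, and the Apex1 window 1 GC box and 3 E boxes. RefSeq lists a further Mgmt start, with the window chr7:136912848-136913147 on the plus strand, that held no match to either motif. At least 1 GC box was present in the windows of 6 members, and in 35.6% of all 32817 promoter windows. The E box was present in the windows of 3 members and in 7.15% of all windows. A p53 half-site was matched in the Neil1 window alone among the members, and in 8.36% of all windows. These are matches of letters and say nothing of binding.

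The libraries count the 3′ ends of transcripts, and every value below is a normalized count, that is, a read count divided by the size factor of its library. Normalization was done for each genotype by itself, so values are compared within a genotype, and levels are not compared between genes. The depth, recovered as whole reads, ran from 150038 to 4791649 reads per library in WT (median 1710016) and from 713584 to 7740710 in Mgmt-/- (median 2347670), and 4 WT libraries had fewer than 300000 reads. The hepatocyte markers summed to 82320 or more in every WT library and to 90090 or more in every Mgmt-/- library used. They summed to 1602 and 2374 in 2 Mgmt-/- saline day 5 libraries, whose kidney markers summed to 24915 and 22160 against at most 21.5 in the others. These 2 libraries were left out, which left 211 of the 213 libraries with values.

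A few further libraries went against their labels. Among the WT NDMA day 1 libraries, 1 labelled male (D209072) had 968 normalized counts of the female transcript Xist and none of the Y-linked Ddx3y, and 1 labelled female (D209077) had no Xist and 70.6 counts of Ddx3y. Both were low for Mgmt among NDMA livers, at 28.0 and 32.6. They were also low for Cdkn1a, the p53-induced cell cycle inhibitor, at 30.3 and 16.3 where the mean of the group was 222. The saline libraries D209074 (day 1), D215004 (day 2) and D215012 (day 5) of WT mice had 359, 212 and 109 normalized counts of Cdkn1a. Those 3 were also the highest saline libraries for Mgmt at their times.

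The age label was compared with the profile over all expressed genes in each late library, as the correlation of its deviations with the saline medians of week 10 and month 10, with the library itself left out. All 39 WT libraries and 38 of 41 Mgmt-/- libraries were nearer to their own age. The Mgmt-/- saline week 10 library D209001 had an r of 0.22 with week 10 and 0.74 with month 10, over 10094 genes. The Mgmt-/- NDMA month 10 libraries D209016 and D209018 had an r of 0.43 and 0.56 with week 10, and of -0.08 and 0.03 with month 10. These 3 libraries, all labelled male, were kept, and the late Mgmt-/- calls are also given without them. They were picked by their own expression profiles. A wider or cleaner difference between ages without them therefore follows largely from the choice and is not separate support.

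Mgmt transcript was close to absent in the Mgmt-/- livers. It ranged from 0 to 9.67 normalized counts over 94 Mgmt-/- libraries, with a median of 1.15 and 30 libraries at 0. In WT livers it ranged from 13.0 to 130.0 with a median of 45.8.

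Saline levels of Mgmt in WT mice overlapped widely between the ages. The lowest, median and highest saline values were 15.6, 37.4 and 128.5 on day 1 and 13.0, 31.7 and 85.0 on day 2. On day 5 they were 13.4, 28.1 and 77.1, at week 10 they were 20.5, 35.8 and 55.4, and the month 10 values were 28.7, 33.8 and 41.6. The day 1, 2 and 5 maxima belong to the saline libraries with high Cdkn1a. The 4 contrasts between ages (day 5 against day 1, week 10 against day 5, month 10 against week 10, month 10 against day 1) ran from -0.78 to 0.32 on the log2 scale for Mgmt, and none passed the test (limma with Benjamini-Hochberg adjustment, adjusted p between 0.27 and 0.80). With edgeR the level at month 10 was below that of day 1 (-0.90, adjusted p = 0.041).

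NDMA was followed by more Mgmt transcript in WT liver on days 1, 2 and 5. The NDMA values ran from 28.0 over a median of 67.1 to 120.2 on day 1, from 47.3 over 81.0 to 115.7 on day 2, and from 45.9 over 70.0 to 90.2 on day 5. On day 1, 23 of 26 NDMA livers exceeded the median of the saline livers, and 0 exceeded their maximum. All 8 of 8 NDMA livers exceeded the saline median on day 2 and again on day 5, and 4 and 2 of them exceeded its maximum. The groups overlapped at each time. On days 2 and 5 a single saline liver, the one with high Cdkn1a, reached into the NDMA range, and the next saline values of 44.8 and 35.0 were below every NDMA liver.

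As group means, Mgmt went from 40.7 ± 23.6 (SD, n = 21) to 69.0 ± 23.6 (n = 26) on day 1, from 34.7 ± 23.1 (n = 8) to 80.6 ± 25.3 (n = 8) on day 2, and from 32.5 ± 20.8 (n = 7) to 70.0 ± 13.0 (n = 8) on day 5. The log2 difference of value + 1, adjusted for sex and library batch, was 0.85 on day 1 (SE 0.15, 95% interval 0.55 to 1.16, limma adjusted p = 2.2e-05). It was 1.36 on day 2 (SE 0.31, 0.71 to 2.00, limma adjusted p = 0.0097) and 1.25 on day 5 (SE 0.28, 0.68 to 1.83, limma adjusted p = 0.0145). Without the libraries that went against their sex label or had high Cdkn1a as saline controls, the differences were 1.03, 1.57 and 1.48. The saline libraries left out were the highest for Mgmt at their times, and the NDMA libraries left out were low for it. These larger differences therefore follow largely from the choice.

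The size varied between library batches on day 1 and hardly at all on days 2 and 5. On day 1 Mgmt differed by 0.65 in batch 191212 (8 NDMA and 8 saline mice), 0.22 in batch 200803 (6 and 4) and 1.28 in batch 210901 (12 and 9). Batch 200803 held the saline library with 359 counts of Cdkn1a and both libraries that went against their sex label. On days 2 and 5 the batches were also the sexes, with differences of 1.25 in males and 1.46 in females on day 2, and of 1.23 and 1.27 on day 5.

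At the late times the rise was no longer detected. At week 10 the NDMA values were 29.5, 55.0 and 130.0 (lowest, median, highest), and the mean was 61.6 ± 31.8 against a saline mean of 37.2 (n = 8 each), whose spread was the smaller. The log2 difference was 0.64 (0.07 to 1.20, limma adjusted p = 0.91), 0.97 in males and 0.30 in females. At month 10 the NDMA values were 16.2, 42.3 and 65.7, the mean was 40.8 ± 13.4 (n = 13) against 34.6 ± 4.86 (n = 10), and the difference was 0.12 (-0.26 to 0.51, limma adjusted p = 0.86). The month 10 NDMA livers were spread on both sides of the narrow saline range, 7 above and 3 below it.

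**Figure D1:**
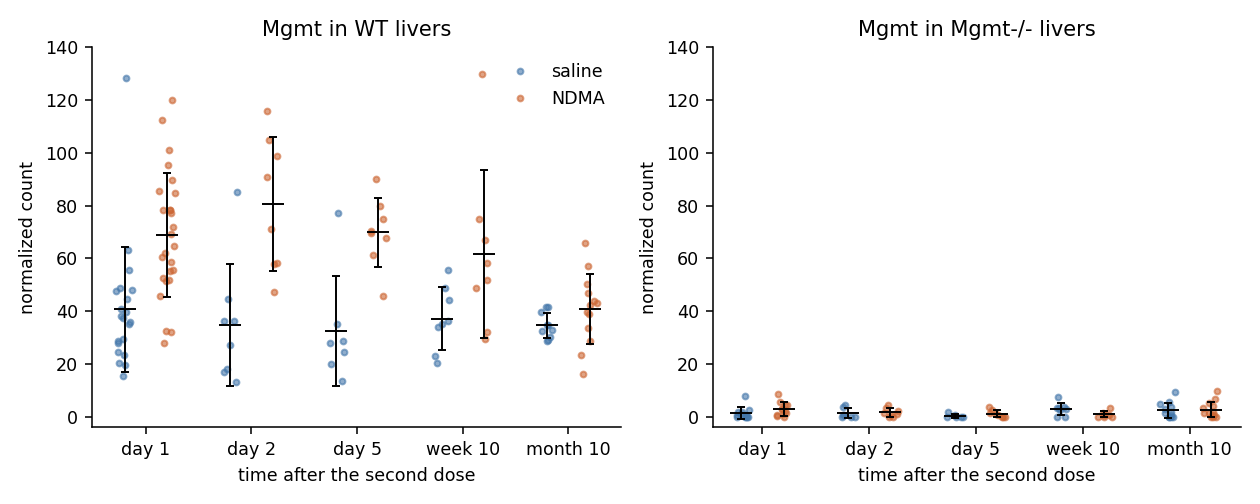
Mgmt normalized counts (vertical axis) in each library (points) by time after the second dose (horizontal axis), in WT (left) and Mgmt-/- (right) livers given saline or NDMA, with bars for the mean and SD. In WT livers the NDMA means of 69.0, 80.6 and 70.0 on days 1, 2 and 5 stand above the saline means of 40.7, 34.7 and 32.5, and every Mgmt-/- library stays at or below 9.67.

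Among the members, only Mgmt passed at more than 1 time in WT. Of all tested genes, 21.1% passed on day 1 in WT, 7.69% on day 2, 3.65% on day 5, 0.0249% at week 10 and 0% at month 10. Mgmt-/- shares were 25%, 26.4%, 23.3%, 11.5% and 9.43%. Of the members, 3 of the 8 that passed the filter on low values were past the test in WT on day 1, 1 of 8 on day 2, 1 of 7 on day 5 and none at week 10 (7 tested) or month 10 (8 tested). In Mgmt-/- livers, where Mgmt itself was below the filter, 2, 0, 1, 0 and 0 of 8 members passed. In the main fit the share of members was above that of all genes in WT on days 1, 2 and 5. It was the same or lower in Mgmt-/-, and all these shares rest on counts of 3 or fewer. Without libraries under 300000 reads, 1346 genes passed in WT on day 2 and 951 on day 5 (659 and 316 in the main fit). The order of the shares therefore depends on the libraries kept, and the difference in shares was not tested. With a log2 difference over 0.58 asked for as well, 1 member was left in WT on day 1 (Mgmt) where 9.19% of all genes were, and 0 in Mgmt-/- where 17.7% were. Where limma called 0 members, 2 in WT at week 10, 1 in WT at month 10, and 1, 0 and 3 in Mgmt-/- on day 2, at week 10 and at month 10 had an unadjusted p under 0.05. EdgeR and DESeq2 also called 0 there, except for 1 and 2 at month 10 in Mgmt-/-. The median log2 difference over the members tested lay between -0.43 and 0.13, where that over all genes tested lay between -0.08 and 0.04.

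The p53 target genes rose on the same days. Of the 10 listed targets, 8 of 8 tested were higher in WT on day 1, 7 of 8 on day 2 and 5 of 7 on day 5, and 0 of 5 and 0 of 6 at the late times. The filter on low values ran over NDMA and saline livers together, and among saline livers alone 5 targets passed it in either genotype. Some targets could thus enter only through high values in NDMA livers, so these shares describe sets that differ between times. Cdkn1a went from a mean of 34.1 to 222 in WT on day 1, a log2 difference of 3.28 (SE 0.34, limma adjusted p = 1.1e-09). In Mgmt-/- livers 9 of 10, 8 of 8, 8 of 8, 5 of 8 and 2 of 7 tested targets were higher from day 1 to month 10, and 7 of 7 at week 10 without the library nearer to month 10.

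The genes whose pattern was most like that of Mgmt over the 117 WT libraries were Trp53cor1 (Pearson r 0.69), Ubd (0.68), Phlda3 (0.68), Snhg15 (0.66) and Psmb9 (0.66), out of 9098 genes. Trp53cor1 is a long noncoding RNA next to Cdkn1a, Ubd a ubiquitin-like protein, Phlda3 an inhibitor of Akt signalling, Snhg15 a host of small nucleolar RNA and Psmb9 an immunoproteasome subunit. Each rose after NDMA in WT livers on day 1, by 2.59, 2.58, 3.07, 2.69 and 1.25 on the log2 scale in that order. The genes were chosen over libraries of both treatments, so a rise beside that of Mgmt follows largely from the choice. These correlations run over libraries of both treatments and all ages and are a description. Within the NDMA group of day 1 alone, Mgmt and Cdkn1a had a Pearson r of 0.62 and a Spearman rho of 0.54 (n = 26), and r was 0.31 without the 2 livers farthest from the median of Cdkn1a. Within the saline group of day 1, r was 0.64 and rho 0.44 (n = 21), and r was 0.38 without the 2 farthest livers. The day 1 groups pool batches 191212, 200803 and 210901, whose saline means of Mgmt were 47.3, 60.5 and 26.0, and batch was not taken into account. The NDMA group of day 1 includes the libraries that went against their sex label. At month 10 r was 0.30 and rho 0.44 in the NDMA group (n = 13, r 0.48 without the 2 farthest), and r was 0.04 and rho 0.18 in the saline group (n = 10, r -0.16 without them).

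Sums of markers of other cells also differed between NDMA and saline livers. The summed 6 measured T cell markers, of which Cd3g was the most abundant and Cd3e was below 1 on average, had a median of 19.5 in WT saline livers and 36.2 in NDMA livers on day 1 (21.5 and 49.3 on day 2, 15.3 and 52.0 on day 5). The 7 hepatocyte markers, led by Alb, had summed medians in saline and NDMA livers of 252241 and 193211 (day 1), 247882 and 175913 (day 2) and 194209 and 187599 (day 5). The 6 stellate cell markers, led by Dcn, were lower after NDMA on each of these days (medians of 862 and 508, 856 and 494, and 860 and 482). For the 5 cholangiocyte markers, led by Spp1, the medians were 193 and 321 on day 1, 262 and 238 on day 2 and 169 and 197 on day 5. The 5 endothelial markers, led by Clec4g, had medians of 336 and 260, 378 and 307, and 309 and 326. The other sums whose medians differed by over 1.5 times were dividing cells (167 and 263) and neutrophils (216 and 126) on day 2, and red cell precursors (7317 and 3516) and B cells (an NDMA median 1.74 times that of saline) on day 5. The part of these cells in the rise of Mgmt, or in Polb and Parp1 on day 1, was not tested. In bulk liver, a change in the number of cells of a type and a change in RNA per cell cannot be told apart.

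Alkbh3, the other direct-reversal member, did not pass limma's test after NDMA in any comparison. In WT livers its saline medians were 40.2, 47.2 and 45.4 on days 1, 2 and 5, and its NDMA medians 39.3, 42.2 and 45.0. Its differences in Mgmt-/- livers were positive at all 5 times and did not pass. On day 5 the 6 saline livers ran from 42.6 over 65.6 to 85.7 and the 8 NDMA livers from 64.6 over 86.5 to 99.8, with a log2 difference of 0.35 (SE 0.16, limma adjusted p = 0.13). It passed on day 5 with libraries scaled to the same total (0.50, limma adjusted p = 0.030). At month 10 the saline livers ran from 13.5 over 27.5 to 36.4 and the NDMA livers from 19.0 over 33.3 to 96.7, with a difference of 0.45 (SE 0.17, limma adjusted p = 0.092), which passed with DESeq2 (0.59, adjusted p = 0.043). At week 10 the difference was 0.37 (SE 0.25, limma adjusted p = 0.42), and 0.11 without the saline library nearer to month 10. At month 10 the 2 highest NDMA values, 96.7 and 61.3, were those of the month 10 libraries nearer to week 10, and without them the difference was 0.31 (limma adjusted p = 0.22).

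Mpg, which removes methylated bases, was uneven between libraries in WT liver. It stood above 60 normalized counts in 6 of 117 WT libraries, against a WT median of 17.6 and a next highest value of 49.5. Of 94 Mgmt-/- libraries 1 stood above 60, against a median of 28.0 and a next highest value of 56.5. The WT libraries were 3 of the 8 saline day 2 livers (190.2, 168 and 164), 1 saline day 1 liver (147), 1 NDMA day 5 liver (90.2) and 1 NDMA month 10 liver (142). They came from both sexes and from 4 library batches. The Mgmt-/- library was a saline day 1 liver at 88.9, with 134 reads of Mpg.

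On day 2 the WT saline livers thus ran from 13.1 over 25.0 to 190.2, and the NDMA livers from 0 over 12.8 to 21.2. All 8 NDMA livers lay below the saline median and 4 below the lowest saline liver. The log2 difference was -2.15 (SE 0.76, 95% interval -3.75 to -0.54, limma adjusted p = 0.10), which did not pass, and with DESeq2 it passed (-2.43, adjusted p = 0.012). The DESeq2 fit lacked the saline livers whose reads could not be recovered, among them the liver at 164, and kept those at 190.2 and 168. It thus rests on fewer saline livers than the limma fit. The other comparisons for Mpg in either genotype were between -0.53 and 0.31, with adjusted p of 0.20 or more.

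**Figure D2:**
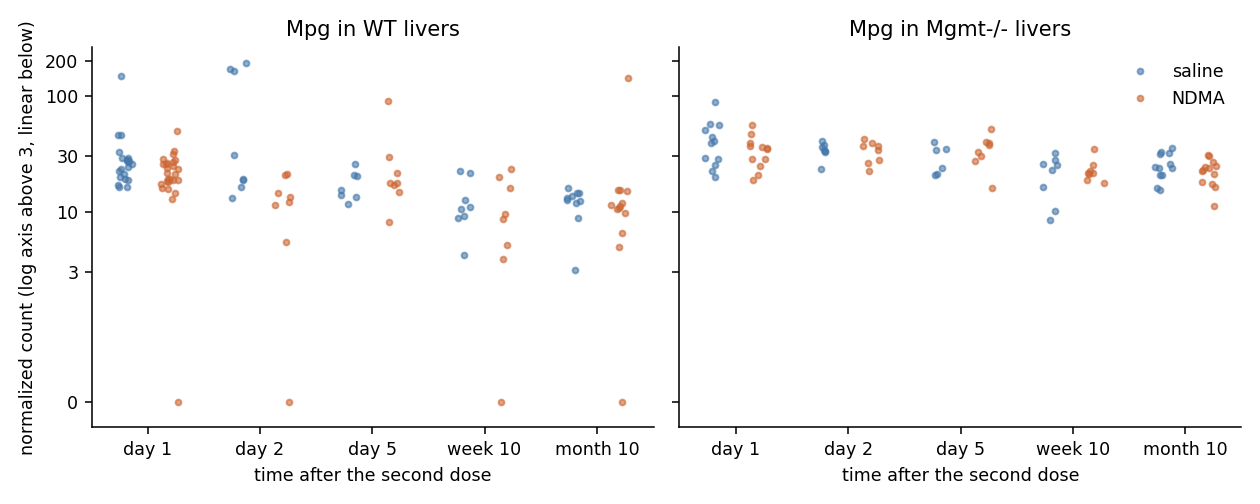
Mpg normalized counts (vertical axis, logarithmic above 3 and linear below) in each library by time after the second dose, in WT and Mgmt-/- livers given saline or NDMA. A handful of WT libraries, 3 of them saline livers of day 2, stand at 90.2 to 190.2 while the WT median is 17.6, and 4 WT NDMA libraries stand at 0.

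Ogg1 and Neil1, which start the repair of oxidised bases, were near the limit of detection. Ogg1 medians were 3.40 in the WT and 5.33 in the Mgmt-/- libraries, with 13 and 5 libraries at 0. It passed the filter in 1 WT comparison (day 2) and 2 Mgmt-/- comparisons (days 2 and 5), with no call. Neil1 medians were 3.74 and 7.95. It was tested in WT on day 1 and at all times in Mgmt-/- livers, where its log2 difference was negative each time, from -0.52 to -0.07, and did not pass (limma adjusted p 0.18 or more). At such low counts small changes of these genes could have been missed.

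Apex1, which cuts the strand at sites without a base, did not pass limma's test after NDMA in either genotype. In WT at week 10 the saline livers ran from 54.9 over 71.0 to 94.4 and the NDMA livers from 29.5 over 51.6 to 64.6. All 8 NDMA livers lay below the saline median and 6 below the lowest saline liver. The log2 difference was -0.59 (SE 0.15, 95% interval -0.90 to -0.27, unadjusted limma p = 0.00081, adjusted p = 0.62), at a time when 2 of 8048 genes passed.

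In Mgmt-/- livers at month 10 the direction was the other way. The saline livers ran from 5.54 over 29.1 to 54.0 and the NDMA livers from 19.5 over 38.9 to 149.2, with 11 of 13 above the saline median. The log2 difference was 0.72 (SE 0.25, limma adjusted p = 0.064), and it passed with edgeR (0.76, adjusted p = 0.042) and DESeq2 (0.81, adjusted p = 0.025). The libraries nearer to week 10 held the highest values, 134 and 149.2, and without them the difference was 0.53 (limma adjusted p = 0.17).

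Polb, the gap-filling polymerase, was slightly higher on day 1 after NDMA in both genotypes. In WT livers the saline values ran from 17.2 over 32.7 to 77.8 and the NDMA values from 26.9 over 39.4 to 67.5, with 18 of 26 above the saline median. The log2 difference was 0.32 (SE 0.12, 95% interval 0.09 to 0.55, limma adjusted p = 0.038). It was 0.15, 0.13 and 0.52 in batches 191212, 200803 and 210901. In Mgmt-/- livers the saline values ran from 22.3 over 45.3 to 64.2 and the NDMA values from 36.4 over 58.6 to 96.7, and 9 of 12 NDMA livers exceeded the saline median, 3 of them the saline maximum. Polb differed by 0.45 (SE 0.14, 0.16 to 0.75, limma adjusted p = 0.019), and 0.43 and 0.48 in batches 191212 and 200803.

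These groups overlapped widely and the calls were close to the threshold. With treatment alone in the model the difference was 0.33 in WT (limma adjusted p = 0.068) and 0.45 in Mgmt-/- (limma adjusted p = 0.11). The WT call was also lost with no filter (0.32, limma adjusted p = 0.060). The Mgmt-/- call was lost with edgeR (0.38, adjusted p = 0.070), with DESeq2 (0.39, adjusted p = 0.053) and within batch 191212 alone (0.43, limma adjusted p = 0.10). The differences themselves thus stayed close to those of the main fit. No other time showed a call for Polb in either genotype, and its log2 differences there lay between -0.02 and 0.38.

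Xrcc1, the scaffold protein, was low in every group and passed the filter in WT at month 10 and in Mgmt-/- on day 1 and at the late times. On day 1 in Mgmt-/- livers it ran from 3.72 over 7.26 to 18.6 in saline and from 0.883 over 4.07 to 11.5 in NDMA livers. On the log2 scale the change was -0.67 (SE 0.27, limma adjusted p = 0.067). Lig3, its ligase partner, was tested at every time and had no call. In WT its differences were -0.57 on day 2 (SE 0.49), -0.83 on day 5 (SE 0.51) and -0.73 at week 10 (SE 0.51), with limma adjusted p of 0.42 or more. Its difference on day 1 in Mgmt-/- livers was -0.43 (SE 0.20, limma adjusted p = 0.12), and on day 5 all 8 NDMA livers lay below the saline median (-0.40, limma adjusted p = 0.18).

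Parp1, which binds strand breaks and makes poly(ADP-ribose), was lower after NDMA on day 1 in both genotypes and on day 5 in Mgmt-/- livers. On day 1 the WT saline livers ran from 15.0 over 29.7 to 55.9 and the NDMA livers from 9.50 over 24.3 to 36.7, with 19 of 26 below the saline median. This was a log2 difference of -0.38 (SE 0.13, 95% interval -0.65 to -0.12, limma adjusted p = 0.031). It was -0.20, -0.19 and -0.63 in batches 191212, 200803 and 210901. In Mgmt-/- livers on day 1 the saline values ran from 26.3 over 44.3 to 68.9 and the NDMA values from 15.7 over 32.7 to 48.3. There 10 of 12 NDMA livers lay below the saline median and 5 below the lowest saline liver, with a log2 difference of -0.47 (SE 0.17, -0.81 to -0.14, limma adjusted p = 0.032). Within batches 191212 and 200803 it was -0.54 and -0.33.

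The groups were nearly separate on day 5 in Mgmt-/- livers. The saline values ran from 32.8 over 39.5 to 67.5 and the NDMA values from 13.7 over 25.9 to 36.3. All 8 NDMA livers lay below the saline median and 7 below the lowest saline liver, and the log2 difference was -0.75 (SE 0.20, -1.17 to -0.33, limma adjusted p = 0.0083). On day 2 all 8 NDMA livers again lay below the saline median, with medians of 47.3 and 32.8, but the difference of -0.32 did not pass (limma adjusted p = 0.14). The day 1 calls were lost with libraries scaled to the same total, at limma adjusted p of 0.14 in WT and 0.27 in Mgmt-/-. The WT call was also lost with no filter (-0.38, limma adjusted p = 0.051) and within batch 210901 alone (-0.66, limma adjusted p = 0.063). The Mgmt-/- call was lost with treatment alone in the model (-0.47, limma adjusted p = 0.094) and with edgeR (-0.44, adjusted p = 0.052). In these 4 refits the difference itself was about as large as in the main fit or larger. That scaling moved the median of all genes on day 1 in Mgmt-/- livers from 0.02 to 0.20, and relative to those medians Parp1 was at -0.49 and -0.48.

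Several marker sums differed between NDMA and saline in the Mgmt-/- livers where Parp1 was lower. The 6 markers of red cell precursors, led by Hba-a1, with Ermap below 1 on average, summed to a median of 10142 in saline and 5113 in NDMA livers on day 1, and of 13249 and 6764 on day 5. The hepatocyte sum had medians of 306484 and 198729 on day 1 and of 350544 and 260849 on day 5. The sum of the 8 markers of dividing cells, led by Birc5, had medians of 430 and 519 on day 1 and of 258 and 357 on day 5. Cholangiocyte medians were 214 and 136 on day 1 and 326 and 118 on day 5. Endothelial medians were 396 and 296, then 477 and 380, and stellate cell medians 1069 and 714, then 1124 and 817. On day 5 neutrophil medians were 182 and 53.2, and those of T cells were 22.3 and 47.6 on day 1 and 19.7 and 139 on day 5. The day 5 groups did not overlap in the sums of hepatocytes, cholangiocytes, neutrophils and T cells. In WT livers on day 1 the red cell precursor medians were 5189 and 4104. The part of these cells in the changes of Parp1 and Polb was not tested.

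**Figure D3:**
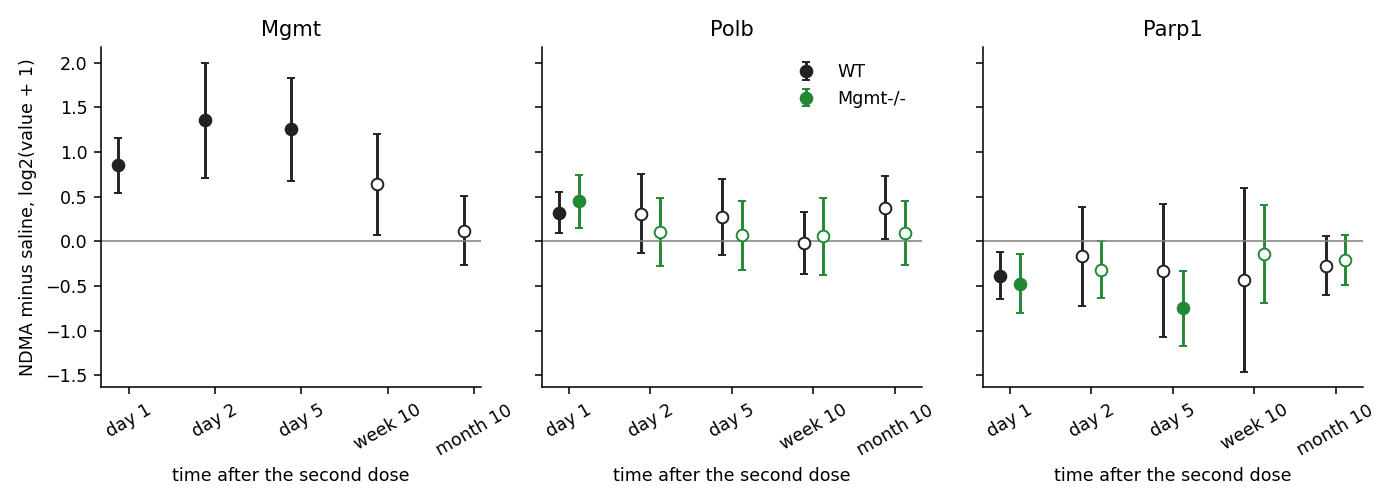
Difference of NDMA minus saline on the log2(value + 1) scale (vertical axis, with 95% intervals) by time after the second dose for Mgmt, Polb and Parp1, in WT (black) and Mgmt-/- (green) livers, with filled symbols for differences past the test. Mgmt is filled in WT on days 1, 2 and 5 (0.85, 1.36 and 1.25), Polb and Parp1 in both genotypes on day 1, and Parp1 in Mgmt-/- on day 5 (-0.75). Mgmt was below the filter in Mgmt-/- livers and is not drawn there.

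In saline livers Apex1, Polb and Alkbh3 were lower at month 10 than at week 10 in both genotypes, and Parp1 and Xrcc1 were higher. In WT, 6 of 8 tested members passed, 3 higher and 3 lower, where 65.5% of all tested genes did, 41.7% higher and 23.8% lower. In Mgmt-/- 5 of 8 passed, 2 higher and 3 lower, where 57.6% did, 33.6% higher and 24.0% lower. The number of members that passed was near the background. The median of all genes was itself 0.36 higher at month 10 in WT and 0.18 in Mgmt-/-, and 0.75 and 0.56 with libraries scaled to the same total. Relative to the median gene, the differences in WT and Mgmt-/- were -1.82 and -2.05 for Apex1, -1.67 and -1.41 for Polb, and -1.48 and -1.41 for Alkbh3. On the same scale they were 1.35 and 1.05 for Parp1 and 0.97 and 0.88 for Xrcc1, and 0.43 for Lig3 in WT.

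Apex1 in WT saline livers ran from 54.9 over 71.0 to 94.4 at week 10 and from 12.7 over 29.5 to 40.2 at month 10. All 10 month 10 livers lay below the lowest week 10 liver. The adjusted difference came to -1.46 (SE 0.19, limma adjusted p = 2.6e-09). In Mgmt-/- livers it ran from 21.9 over 120.8 to 195.8 at week 10 and from 5.54 over 29.1 to 54.0 at month 10, with a difference of -1.86 (SE 0.33, limma adjusted p = 8.5e-06). The lowest week 10 liver was the library nearer to month 10. Without it week 10 started at 67.2, all 12 month 10 livers lay below it, and the difference was -2.20. That library was picked by its profile, so the wider gap without it, here and for the genes below, follows largely from the choice.

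Polb ran from 41.1 over 52.0 to 67.4 at week 10 and from 8.72 over 22.3 to 35.8 at month 10 in WT, again with all 10 older livers below the younger ones. Polb differed by -1.31 (SE 0.22, limma adjusted p = 5.7e-07). Among Mgmt-/- livers it ran from 48.0 over 75.8 to 118.8 at week 10 and from 17.4 over 31.6 to 71.4 at month 10. There 9 of 12 older livers lay below the lowest younger one, or 11 of 12 without the library nearer to month 10. The difference was -1.23 (SE 0.20, limma adjusted p = 1.5e-06), and -1.35 without it.

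Alkbh3 ran from 33.5 over 45.2 to 55.7 at week 10 and from 11.3 over 19.6 to 27.2 at month 10 in WT, with no overlap. On the log2 scale the change was -1.11 (SE 0.21, limma adjusted p = 7.2e-06). For Mgmt-/- livers it ran from 15.7 over 73.2 to 89.8 at week 10 and from 13.5 over 27.5 to 36.4 at month 10, with a difference of -1.22 (SE 0.21, limma adjusted p = 4.5e-06). Only 1 of 12 older livers lay below the lowest younger one, against all 12 without the library nearer to month 10, where the difference was -1.49.

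Parp1 changed in the other direction. It ran from 5.52 over 11.6 to 15.6 at week 10 and from 30.5 over 33.6 to 57.0 at month 10 in WT, so that all 10 older livers lay above the younger ones. This was a log2 difference of 1.71 (SE 0.25, limma adjusted p = 4.4e-08). In the Mgmt-/- group it ran from 6.12 over 22.6 to 53.2 and from 32.1 over 48.9 to 74.2, with a difference of 1.23 (SE 0.21, limma adjusted p = 2.2e-06). The highest week 10 value, 53.2, belonged to the library nearer to month 10, and without it all 12 older livers lay above the younger ones, with a difference of 1.40.

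Xrcc1 in WT ran from 0 over 2.95 to 5.63 at week 10 and from 3.20 over 8.37 to 17.5 at month 10, with 8 of 10 older livers above the highest younger one. The adjusted difference came to 1.34 (SE 0.44, limma adjusted p = 0.0065) in WT and 1.07 (SE 0.35, limma adjusted p = 0.0086) in Mgmt-/-. Without the library nearer to month 10 the Mgmt-/- difference was 1.26 (limma adjusted p = 0.0018). The Mgmt-/- call was lost with edgeR (0.72, adjusted p = 0.092). Lig3 was higher in WT by 0.79 (SE 0.35, limma adjusted p = 0.043), and its call was lost with edgeR (0.27, adjusted p = 0.45).

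The directions held within library batches. In WT, batches 200710 (3 older and 4 younger males) and 200724 (4 and 4 females) gave log2 differences of -1.73 and -1.21 for Apex1, -1.10 and -1.44 for Polb and -1.14 and -1.09 for Alkbh3. They gave 2.00 and 1.46 for Parp1 and 1.46 and 1.19 for Xrcc1. All Mgmt-/- livers of both ages were in batch 200803. The sum of the dividing cell markers was lower at month 10 than at week 10, with medians of 24.3 and 11.8 in WT and 23.0 and 14.4 in Mgmt-/- saline livers. The red cell precursor sum had medians of 1927 and 702 in WT and 2370 and 1007 in Mgmt-/-, and the hepatocyte sum of 188127 and 142835 in WT and 191214 and 162069 in Mgmt-/-. Endothelial medians were 302 and 144 in WT and 273 and 168 in Mgmt-/-, and those of T cells were 13.9 and 4.73 in Mgmt-/-, with a month 10 median 0.616 times that of week 10 in WT. Macrophage medians were 436 and 229 and cholangiocyte medians 151 and 97.4 in WT, and in Mgmt-/- the neutrophil medians were 71.2 and 42.8 and those of B cells 11.8 and 18.6. The part of these cells in the age differences was not tested.

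Against day 1, Alkbh3, Apex1 and Polb were also lower at month 10. In WT, where 49.3% of all genes passed, the log2 differences were -1.13 for Alkbh3 (limma adjusted p = 0.0021), -0.95 for Apex1 (0.0049) and -0.78 for Polb (0.038). The Polb call was lost without the saline libraries with high Cdkn1a (-0.47, adjusted p = 0.25) and with libraries scaled to the same total. In Mgmt-/-, where 53.3% passed, they were -0.81 for Alkbh3 (limma adjusted p = 0.010), -1.10 for Apex1 (0.023) and -0.78 for Polb (0.0094). There Lig3 was lower as well (-0.58, adjusted p = 0.038) and Parp1 higher (0.73, adjusted p = 0.016). Without the batch term the calls of Polb (-0.34), Lig3 (-0.23) and Parp1 (0.28) in Mgmt-/- were lost and the differences were smaller. With libraries scaled to the same total that of Lig3 was lost (-0.36, limma adjusted p = 0.22). The median gene was 0.27 higher in WT and 0.12 in Mgmt-/-. Relative to it, Alkbh3, Apex1 and Polb were at -1.41, -1.22 and -1.06 in WT and at -0.93, -1.22 and -0.90 in Mgmt-/-.

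No member passed between day 1 and day 5 or between day 5 and week 10 in either genotype. WT livers of day 1 and day 5, and Mgmt-/- livers of day 5 and week 10, shared no library batch. With the batch term these contrasts were linked only through livers of other ages. Without it the calls over all genes went from 39 to 1169 and from 492 to 4421 in that order. The shares of all genes that passed were 0.431% and 13.4% in WT and 5.38% and 4.98% in Mgmt-/-. By limma, 0 members on day 5 against day 1 had an unadjusted p under 0.05 in either genotype, and 2 in WT and 0 in Mgmt-/- did at week 10 against day 5. Without the batch term Parp1 passed as lower in WT on day 5 than on day 1 (-0.96) and in Mgmt-/- at week 10 than on day 5 (-0.91), and Polb as higher in the latter (0.87). With libraries scaled to the same total Parp1 passed as lower in WT at week 10 than on day 5 (-0.72, adjusted p = 0.038).

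**Figure D4:**
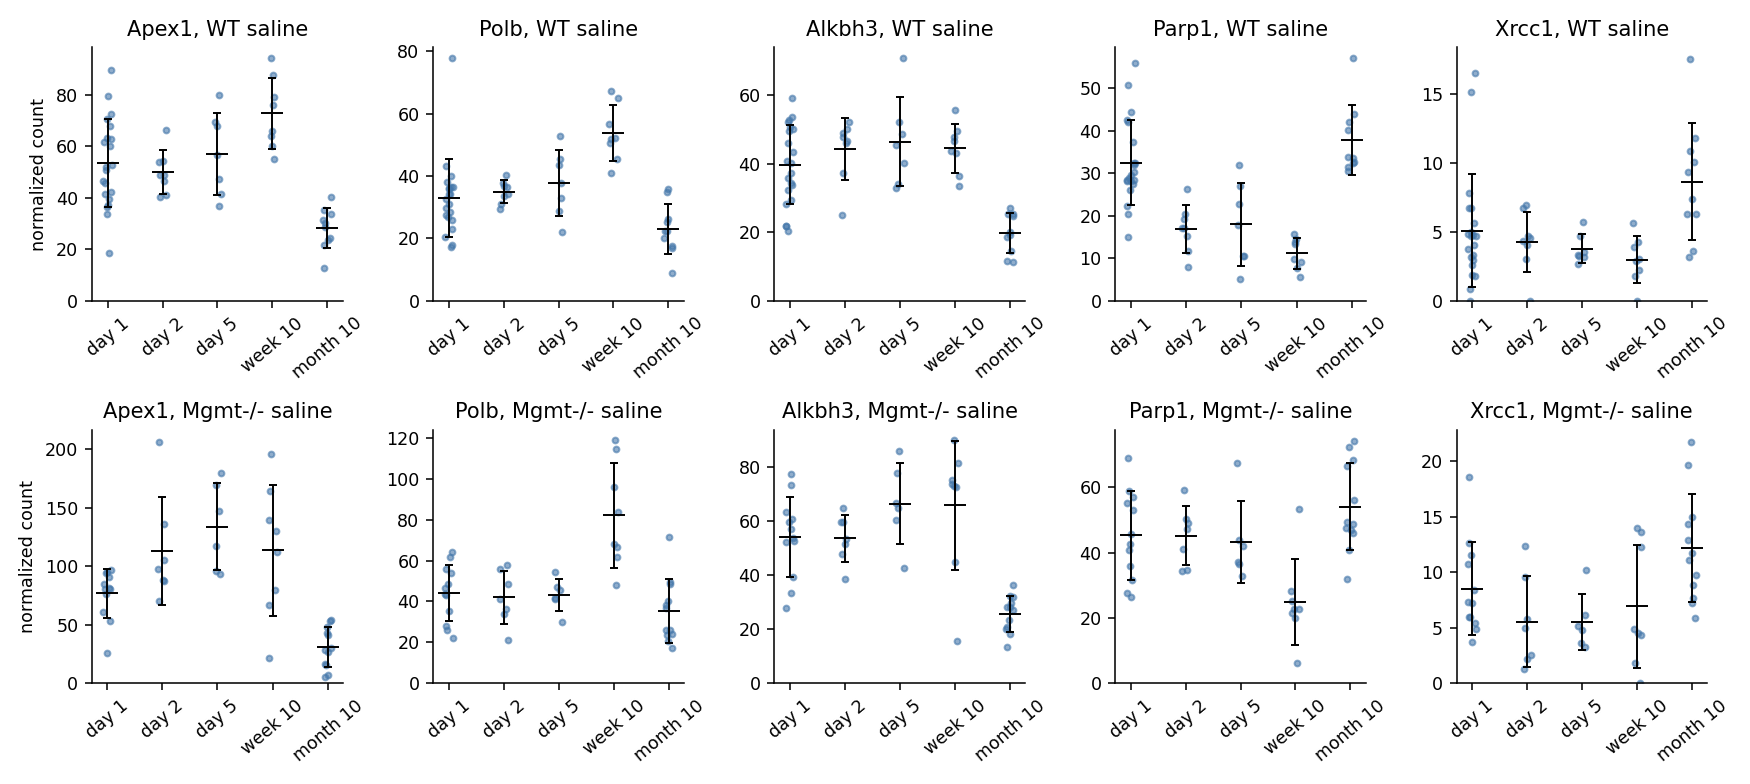
Normalized counts (vertical axes, each panel with its own scale from 0) of Apex1, Polb, Alkbh3, Parp1 and Xrcc1 in each saline library (points) by time after the second dose, in WT (upper row) and Mgmt-/- (lower row) livers, with bars for the mean and SD. Apex1, Polb and Alkbh3 stand lower at month 10 than at week 10 (WT medians 71.0 to 29.5, 52.0 to 22.3 and 45.2 to 19.6), and Parp1 stands higher (11.6 to 33.6).

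Over all libraries Alkbh3, Apex1 and Polb tended to go together, and Parp1 and Xrcc1 hardly did. Across the 117 WT and 94 Mgmt-/- libraries, on the log2 scale, Pearson r between Alkbh3 and Apex1 was 0.55 and 0.76, between Alkbh3 and Polb 0.52 and 0.53, and between Apex1 and Polb 0.40 and 0.50. Between Parp1 and Xrcc1 it was 0.14 and 0.24. Polb and Parp1 had an r of -0.40 and -0.67, and Alkbh3 and Parp1 of -0.40 and -0.57. These libraries share ages, batches and depth, so the values are descriptions. Mgmt had its highest r among the members with Polb, 0.33 in WT.

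Whether the response to NDMA or the saline level differed between genotypes was tested on recovered reads in 1 model over both tables, with edgeR's quasi-likelihood test. Among saline livers Mgmt was the 1 gene that passed in the main fit at each of the times when the genotypes shared a library batch. At month 10 the alternatives gave from 6 genes (limma voom) to 128 (no sex and batch terms). Mgmt is the gene deleted in the Mgmt-/- mice, so this outcome was set by the genotype and serves only as a check of the labels. The log2 difference of Mgmt in Mgmt-/- minus WT was -5.52 on day 1 (SE 0.33, edgeR adjusted p = 7.4e-17) and -4.26 at month 10 (SE 0.39, edgeR adjusted p = 1.9e-08), where 0.00991% and 0.0108% of all genes passed. No other member of the 9 tested passed, and their log2 differences lay between -0.28 and 0.50 on day 1 and between -0.69 and 0.61 at month 10. At month 10 Apex1 (-0.69, SE 0.31) and Mpg (0.61, SE 0.28) had unadjusted p of 0.030 and 0.036 and adjusted p of 0.58.

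For the response to NDMA, 0 of 10, 0 of 9, 0 of 9, 1 of 9 and 0 of 9 members tested had a genotype by treatment term past the test from day 1 to month 10. On days 2 and 5 and at week 10 the genotypes shared no library batch, so at those times a difference in response between genotypes cannot be told apart from one between batches. The shares of all genes were 0.00963%, 3.94%, 2.15%, 5.79% and 1.53%. By unadjusted edgeR p under 0.05 the counts of members were 0, 1, 0, 1 and 1. The call was that of Mgmt at week 10 (-2.23, SE 0.64, edgeR adjusted p = 0.024). In Mgmt-/- livers, where the gene is deleted, it rested on medians of 2.97 in saline and 0.714 in NDMA livers. It is therefore a term on almost no transcript and is not read as a difference in response. Without the week 10 library nearer to month 10 it was -2.17 (adjusted p = 0.040).

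Mpg on day 2 had a term of 2.03 (SE 0.61, edgeR adjusted p = 0.063), with 3 of the 8 WT saline libraries left out because their reads could not be recovered. It passed without sex and batch terms (2.58, adjusted p = 0.018) and without the libraries against their sex label and the high-Cdkn1a control (2.17, adjusted p = 0.028). Apex1 at month 10 had a term of 0.95 (SE 0.34, edgeR adjusted p = 0.15), and of 0.51 (adjusted p = 0.36) without the month 10 libraries nearer to week 10. Parp1 and Polb on day 1 had terms of -0.10 (SE 0.21) and 0.06 (SE 0.20), so that a difference between genotypes was not detected. On day 5, where Parp1 passed in Mgmt-/- and not in WT (WT difference -0.33), its term was -0.26 (SE 0.39, edgeR adjusted p = 0.81).

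Beside the members, 39 further genes of direct reversal and base excision repair were listed, and 34 of them were tested in at least 1 NDMA comparison. Of these, 13 passed at least once. In WT, 4 higher and 2 lower of 31 passed on day 1, 2 and 0 of 25 on day 2, 1 and 0 of 29 on day 5, and none at week 10 (23 tested) or month 10 (27 tested). Among Mgmt-/- livers the counts were 4 and 2 of 33, 4 and 0 of 31, 3 and 2 of 31, 1 and 0 of 28, and 2 and 1 of 29. As shares of those tested this was 19.4%, 8%, 3.45%, 0% and 0% in WT and 18.2%, 12.9%, 16.1%, 3.57% and 10.3% in Mgmt-/-, so that the list was near or below the shares of all genes (21.1%, 7.69%, 3.65%, 0.0249% and 0% in WT, and 25%, 26.4%, 23.3%, 11.5% and 9.43% in Mgmt-/-). Without the late libraries nearer to the other age, 1 and 0 of 28 passed at week 10 and 3 and 1 of 29 at month 10 in Mgmt-/-. The median log2 difference over the list lay between -0.12 and 0.22.

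Pold4, the smallest subunit of DNA polymerase delta, was higher after NDMA in 8 of its 10 comparisons. For Mgmt-/- livers it went from a mean of 84.3 to 160.2 on day 1 (log2 difference 0.93, SE 0.15), from 53.7 to 102 on day 2 (0.99), from 47.8 to 94.9 on day 5 (1.07), from 42.2 to 97.3 at week 10 (1.23) and from 34.8 to 54.2 at month 10 (0.66). Without the late libraries nearer to the other age it still passed, with 1.04 at week 10 and 0.58 at month 10. Marker sums differed widely in these late Mgmt-/- livers. At week 10 the cholangiocyte sum had medians of 86.9 in saline and 825 in NDMA livers, that of dividing cells 23.0 and 133, B cells 11.8 and 31.5, stellate cells 464 and 708, neutrophils 71.2 and 165 and T cells 13.9 and 24.4. The groups did not overlap for dividing cells, B cells and stellate cells. The part of these cells in the difference of Pold4 was not tested. Its differences in WT were 0.56, 0.64 and 0.95 on days 1, 2 and 5. Pold2, another accessory subunit of that polymerase, went the other way in Mgmt-/- livers, from 19.5 ± 7.90 to 8.78 ± 3.78 on day 1 (n = 12 each, -1.17, SE 0.27, limma adjusted p = 0.00086) and by -1.04 on day 5.

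Parp3, a relative of Parp1 that also responds to strand breaks, went from 9.41 ± 4.81 to 22.5 ± 6.81 on day 1 in Mgmt-/- livers (n = 12 each, 1.28, SE 0.25, limma adjusted p = 0.00011), while Parp1 was lower in the same livers. It was also higher on day 5 (0.76) and in WT on day 1 (0.66). Alkbh2, the nuclear relative of Alkbh3, was higher on day 1 in both genotypes, by 0.92 in Mgmt-/- (limma adjusted p = 0.0021) and 0.61 in WT (limma adjusted p = 0.0036).

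Lig1, the replicative ligase, was higher in Mgmt-/- at month 10 (6.86 to 14.2, log2 difference 0.98, and 0.94 without the libraries nearer to week 10) and in WT on day 2 (0.94). Fen1, the flap endonuclease, was higher in Mgmt-/- on day 2 (51.6 to 92.6, 0.79). Aptx, which cleans adenylated ends, was higher in Mgmt-/- on day 5 (25.6 to 42.7, 0.71), and Ascc2, of the complex that works with Alkbh3, was lower (48.7 to 30.7, -0.74). At month 10 Ascc2 differed in the other direction in Mgmt-/- (0.46, limma adjusted p = 0.18), and it passed as higher without the libraries nearer to week 10 (0.63, limma adjusted p = 0.043). The dividing cell sum was higher in these Mgmt-/- groups as well, with medians of 336 and 696 on day 2 and of 14.4 and 44.7 at month 10. On day 2 the T cell medians were 20.6 and 109, those of neutrophils 195 and 65.1 and those of red cell precursors 9241 and 4864. At month 10 the cholangiocyte medians were 87.0 and 366, with no overlap between the groups, and the medians were 4.73 and 9.14 for T cells and 18.6 and 30.0 for B cells. The part of these cells in Lig1, Fen1 and Pold4 was not tested.

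Several genes of the list also differed with age. At month 10 against day 1 in saline livers, 8 of 28 tested genes were lower and 2 higher in WT, and 14 of 29 were lower and 2 higher in Mgmt-/- (3 higher and 14 lower without the library nearer to month 10). The share that passed was 35.7% in WT where 49.3% of all genes did, and 55.2% in Mgmt-/- where 53.3% did. The share that passed as lower was 28.6% in WT where 21.5% of all genes were lower, and 48.3% in Mgmt-/- where 25.6% were. The genes lower in both genotypes were Ascc1, Fen1, Hpf1, Lig1, Parp2, Pold4, Rfc3 and Rfc4, and the gene higher in both was Parp3. At month 10 against week 10 the counts were 5 higher and 6 lower of 28 in WT, and 4 higher and 6 lower of 29 in Mgmt-/- (5 and 9 without that library). These were 39.3% and 34.5% of the list, below the 65.5% and 57.6% of all genes. At week 10 against day 5, 9 of 28 were lower in WT and 1 of 29 in Mgmt-/-, that is 32.1% and 3.45%, where 13.4% and 4.98% of all genes passed in either direction. These ages shared library batches in WT and shared none in Mgmt-/-, so the counts are not compared between genotypes. The dividing cell sum had saline medians of 190 on day 5 and 24.3 at week 10 in WT, and of 258 and 23.0 in Mgmt-/-, and its part was not tested. The sums of all 10 lists of liver and blood cell markers had lower medians at month 10 than on day 1 in both genotypes. The dividing cell sum went from saline medians of 342 to 11.8 in WT and from 430 to 14.4 in Mgmt-/-, and its part was not tested.

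**Figure D5:**
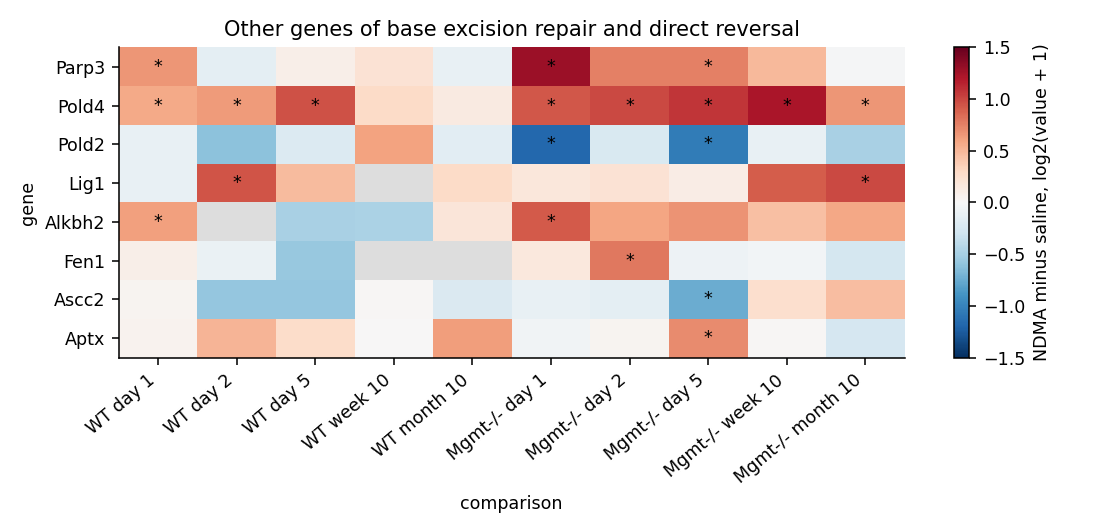
Difference of NDMA minus saline on the log2(value + 1) scale (colour, red for higher and blue for lower) for 8 named genes of the wider repair list (rows) in the 10 comparisons (columns), with an asterisk where the difference passed the test and grey where the gene was below the filter. Pold4 carries an asterisk in 8 of 10 comparisons, with 1.23 in Mgmt-/- livers at week 10, and Pold2 is at -1.17 in Mgmt-/- livers on day 1.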

How the data were processed

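Livers of 214 labelled mice were described, and 213 had a column of values (1 Mgmt-/- saline month 10 sample was not analysed here). Per the submitters' notes and the study's methods, the authors made barcoded 3′ libraries with molecular identifiers, aligned them with STAR to GRCm38, counted with ESAT and divided the counts by DESeq2 size factors, by genotype. Their versions are not given in the sources used here. The deposited values are therefore a normalized signal per gene and not counts. In 209 columns whole reads were recovered from the steps between values (tolerance 0.02 reads), and in 4 they were not. Read depths quoted are totals of these recovered reads, and their range limits the precision of low genes.

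NDMA and saline were compared within each genotype and time with limma 3.58.1 (trend and robust, two-sided) on log2(value + 1) in R 4.3.3, with sex and library batch as terms where they could be fitted. Genes averaging below 5 were not tested. A gene passed at a Benjamini-Hochberg adjusted p below 0.05 over all genes tested. Saline ages were fitted the same way over all saline mice of a genotype. For genotype terms the recovered reads went into edgeR 4.0.16 with TMM factors and its quasi-likelihood test, again leaving out genes averaging below 5 reads, and their SE was derived from the F statistic. Mice are the replicates, and p-values measure the spread between mice. Tables and figures were made with Python 3.11.15, pandas 2.3.3, numpy 2.4.6, scipy 1.17.1 and matplotlib 3.10.9, and the fits were tested on simulated data.

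The members and lists were chosen with earlier results of these data known. All 10 members are named, and of 39 other repair genes the 8 with the largest absolute log2 difference among those that passed after NDMA. The 5 genes most like Mgmt are those with the highest Pearson r over WT libraries. Saline Mgmt-/- day 5 libraries with Kap above 1000 were left out. The alternatives tried were a pseudocount of 5, no low-value filter, a filter at 20, models without sex or batch, a common library total as scaling, DESeq2 1.42.0, edgeR, limma voom, a log2 difference over 0.58 as well, single batches, libraries under 300000 reads left out, Kap libraries kept and each replicate left out. The alternatives without libraries that went against their sex or age label, or without saline controls with Cdkn1a above 100, were chosen after seeing the data.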

Additional observations from a re-analysis of the deposited data

Results flagged for a closer look

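In each group of 4 to 10 mice with a mean of at least 5 normalized counts the highest and lowest library of a member was compared with its nearest neighbour by Dixon's criterion at 95%. Of 103 groups tested 10 stood out, each on the high side. The 95% level assumes normally distributed values, which was not checked for these low counts, so the number is not compared with chance. Mgmt had 3 of them: the WT saline libraries with high Cdkn1a on day 2 (85.0, next 44.8) and day 5 (77.1, next 35.0), and a WT NDMA library at week 10 (130.0, next 75.1, from 19 reads). Parp1 had 3, in Mgmt-/- saline livers on day 5 (67.5, next 43.8) and at week 10 (53.2, next 28.3, the library nearer to month 10), and in a WT saline liver at month 10 (57.0, next 43.8). Mpg had 2, in a WT NDMA liver on day 5 (90.2, next 29.8) and a Mgmt-/- NDMA liver at week 10 (34.3, next 25.1). Lig3 in a WT saline liver on day 2 (22.1, next 14.0) and Ogg1 in a WT NDMA liver on day 2 (21.0, next 5.46, from 2 reads) were the others.

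The genotype by treatment term of Mgmt at week 10, -2.23 on the log2 scale, was flagged by the rule for differences between groups. It is not read as a difference in response. The Mgmt-/- livers held almost no Mgmt transcript, and the genotypes shared no library batch at week 10.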

How the results depend on the processing

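Of 182 refits of the 30 single-gene results under an alternative, leaving out replicates apart, 162 stayed on the same side of the threshold, 20 fell short of it and 0 changed direction. The Mgmt calls in WT on days 1, 2 and 5 and the Parp1 call in Mgmt-/- on day 5 passed under every alternative run. Single-batch refits were run in the largest batch of a comparison only. For WT on day 1 this was batch 210901, where the Mgmt difference was the largest, and batches 191212 and 200803 were not tested alone. With replicates left out in turn (92 refits), the members past the test stayed at 1 to 1 in WT on days 2 and 5 and in Mgmt-/- on day 5, and at 0 to 0 in WT at week 10 and Mgmt-/- on day 2 and at week 10. Mgmt then ran from 1.21 to 1.57 on day 2 and from 1.07 to 1.48 on day 5, and Parp1 from -0.82 to -0.57. The number of members past the test changed by over 1.5 times as follows, and the cause was not tested. In WT on day 1 (3) it was 1 with no filter and 1 with the log2 threshold of 0.58. In WT on day 2 (1) it was 2 with DESeq2, which added Mpg and lacked the saline libraries without recovered reads. In Mgmt-/- on day 1 (2) it was 0 with no sex and batch terms, with edgeR and with the 0.58 threshold, and 1 with total scaling, DESeq2 or batch 191212 alone. In Mgmt-/- on day 5 (1) it was 2 with total scaling, which added Alkbh3, and at month 10 (0) it was 1 with edgeR and 2 with DESeq2. For saline ages it became 1 in WT for day 5 against day 1 with no batch term (main 0), 1 for week 10 against day 5 with total scaling and 1 without controls with Cdkn1a above 100 (main 0), and 5 for month 10 against day 1 with no batch term (main 3). In Mgmt-/- with no batch term it became 2 for week 10 against day 5 (main 0) and 3 for month 10 against day 1 (main 5). The day 2 genotype term (0) gave 1 with no sex and batch terms and 1 without the high-Cdkn1a libraries, Mpg both times. Smaller changes in these counts came from Polb, lost in WT on day 1 with no sex and batch terms and for month 10 against day 1 with total scaling or without controls with high Cdkn1a, and from Parp1, lost in WT on day 1 with total scaling or in batch 210901 alone and gained for month 10 against day 1 with total scaling. EdgeR lost Lig3 in WT and Xrcc1 in Mgmt-/- for month 10 against week 10 and added Mgmt in WT for month 10 against day 1. In Mgmt-/- total scaling added Mpg and Ogg1 for month 10 against week 10 and lost Lig3 for month 10 against day 1, and keeping the kidney-marker libraries added Ogg1 for month 10 against week 10. A filter at 20, which tests fewer genes, gave 4 members for month 10 against week 10 in WT (main 6) and 4 in Mgmt-/- (main 5). Over all genes, calls ran from 1213 to 2270 in WT on day 1 (main 1903), 413 to 1346 on day 2 (659), 150 to 951 on day 5 (316), 0 to 5 at week 10 (2) and 0 to 1 at month 10 (0), and from 1166 with the kidney-marker libraries kept to 2516 in Mgmt-/- on day 5 (2169). For ages they ran from 34 to 1169 (39) and 3642 to 6220 (5931) in WT for day 5 against day 1 and month 10 against week 10, and from 406 to 1743 (532) and 385 to 4421 (492) in Mgmt-/- for day 5 against day 1 and week 10 against day 5. The genotype terms gave 1 to 2 on day 1 (1), 338 to 633 at week 10 (518) and 34 to 140 at month 10 (147), and saline genotype 1 to 2 on day 1 (1) and 6 to 128 at month 10 (1). No paired analysis was possible because the replicate names are unique to each mouse. Ogg1, Neil1 and Xrcc1 were low and fell below the filter in several comparisons.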
